A study of Mus musculus with 12 samples.

Results

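The genes described here are the mouse C-type lectin Cd209f and 9 further receptor genes of tissue macrophages, Cd209a, Cd209b, Cd209d, Cd209g, Clec10a, Mgl2, Mrc1, Cd163 and Folr2, measured in the submandibular salivary gland. A probe was taken when its only gene symbol in the array annotation was 1 of these names. All 10 genes had a probe, 15 probes in all, out of 19057 genes and 45281 probes on the array. The members were chosen by their measured difference between the ages, in which Cd209f stood high, so that difference is given as a description, without a test. Cd163 and Folr2 are not lectins, although they are found on the same kinds of macrophage.

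Total RNA came from C57BL6J mice aged 8 weeks, measured on 6 arrays, and 50 weeks, also on 6 arrays. No other treatment or allele is named for either age, and the sex of the mice is not given in the sources used here. With 2 ages, maturation after 8 weeks cannot be told apart from later ageing. The labels number the mice but do not tie 1 animal to 1 array, so the p-values below measure the spread between samples and may be technical in part. Whole gland was measured, so more cells of a type and more RNA per cell cannot be told apart.

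C-type lectins are calcium-dependent receptors that bind sugars on microbes, on mucins and on the body's own glycoproteins, and many of them carry the bound cargo into the cell. The Cd209 genes are the mouse relatives of human DC-SIGN, which recognises mannose- and fucose-containing glycans. Salivary glands hold macrophages along ducts, acini and vessels, and mannose receptor, galactose-type lectins and scavenger receptors are commonly used to mark such resident cells.

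The 5 Cd209 members lie in 1 cluster on chromosome 8, in the order Cd209a, Cd209e, Cd209d, Cd209b, Cd209c, Cd209f and Cd209g in the RefSeq gene table of assembly GRCm38.p6. Cd209f and Cd209g, at 1 end of the cluster, are neighbours, and RefSeq promoter windows (250 bases before to 50 after the annotated start) are shown for these genes because they are near copies over most of their length while the Cd209f probe was detected on 11 arrays and the Cd209g probe on 1. The Cd209f window is chr8:4105715-4106014 on the minus strand and the Cd209g window is chr8:4134486-4134785 on the plus strand, both on GRCm38.p6, and capitals mark the longest run of bases that is identical in both.
Cd209f: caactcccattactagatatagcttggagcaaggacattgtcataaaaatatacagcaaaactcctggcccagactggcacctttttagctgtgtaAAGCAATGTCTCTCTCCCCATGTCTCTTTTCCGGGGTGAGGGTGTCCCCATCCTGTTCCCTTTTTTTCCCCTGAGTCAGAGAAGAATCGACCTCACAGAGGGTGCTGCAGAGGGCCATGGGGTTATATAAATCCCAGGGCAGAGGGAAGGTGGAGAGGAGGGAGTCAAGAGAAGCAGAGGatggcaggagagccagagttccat
Cd209g: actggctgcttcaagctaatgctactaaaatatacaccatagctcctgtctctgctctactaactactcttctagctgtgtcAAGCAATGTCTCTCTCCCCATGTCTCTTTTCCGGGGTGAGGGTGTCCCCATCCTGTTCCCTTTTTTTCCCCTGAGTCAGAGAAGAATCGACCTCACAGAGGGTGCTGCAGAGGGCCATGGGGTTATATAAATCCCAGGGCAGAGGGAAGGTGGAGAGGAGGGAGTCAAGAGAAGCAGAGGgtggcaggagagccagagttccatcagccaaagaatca
Over 281 aligned bases 259 were identical, or 92.2%. The shared run is 180 bases long, from -154 to 26 of the Cd209f start and from -168 to 12 of the Cd209g start, an offset of 14 bases between the annotated starts. For the other 9 pairs among the 5 Cd209 windows, identity was 58.1% to 68.1% and the longest shared run 7 to 17 bases. No probe sequences were used here, so whether a Cd209 probe can bind the transcript of another Cd209 gene was not tested.

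Both strands of the promoter windows of 9 members were searched for short motifs, and all matches are descriptions of the letters alone. The TATA box letters TATAAA were in 3 of 9 members (Cd209a, Cd209f and Cd209g), against 13.6% of 32851 RefSeq windows of that length. In Cd209f the match began at -29 and in Cd209g at -43, both inside the shared run, so these matches are copies of 1 stretch. In Cd209a it began farther from the start, at -184. The letters GAGGAA, an ETS-type box, were in Cd209d, Mgl2 and Mrc1, against 28.3% of windows. They contain GGAA, the ETS core, which all 9 members held, against 96% of windows. The windows of the 9 members held no TTC and GAA spaced by 4 bases (6.95% of all windows did) or by 3 bases (8.3%), no repeat of GAAA spaced by 2 bases (3.44%) and no TGCTGAC (4.67%).

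Mean probe intensity was 207 to 324 over the 12 arrays. On the 8-week arrays 15321 to 16433 probes were detected (detection p-value under 0.05). At 50 weeks 15318 were detected on array 6 and 16570 to 18110 on the others. Counts of detected arrays by age, given below, carry this difference. The mean r of 50-week array 6 with same-age arrays was 0.949, and that of each other array was at least 0.975. Array 2 of the 8-week group stood high for adipocyte genes (mean log2 level 9.80, other 8-week arrays 5.56 to 8.01). Arrays 1 and 2 of that group also stood high for lymph node and B cell genes (6.41 and 6.10, the other 4 arrays 5.19 to 5.29). Some of the counts and member values that moved when 1 of these arrays was left out are also given without it. All 8 granular duct genes tested, the hallmark of the rodent submandibular gland, were detected, and the mean of the list was 14.6 to 14.9 on every array. The mean of genes of other salivary glands varied more, from 10.8 on 8-week array 3 to 13.2 on 8-week array 1. At 50 weeks it was 11.0 to 13.1. The part of other gland tissue on each array was not tested.

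Cd209f was the member that differed most between the ages. Its single probe (ILMN_2699665) had a log2 level (background-corrected and quantile-normalised intensity) of 5.01 at the lowest, 5.63 at the median and 6.11 at the highest of the 8-week arrays. At 50 weeks the lowest was 7.08, the median 7.37 and the highest 7.76. All 6 old arrays therefore lay above every young array. Array 3 had the lowest and array 1 the highest young value, and array 3 was the single array on which the probe was not detected, with a detection value of 0.0566. The group means were 5.62 ± 0.44 and 7.42 ± 0.23 (SD, n = 6 arrays each), a difference of 1.80 ± 0.18 (SE), or 3.48-fold. Of the 9379 genes, 11 had a greater positive difference. On the deposited intensity scale the values were 106, 137 and 182 at 8 weeks (lowest, median, highest) and 212, 257 and 373 at 50 weeks. The fold depended on the background step: without background correction it was 1.78-fold, and on the authors' scaled values 1.77-fold. Without 8-week array 2 and 50-week array 6 together the difference was 1.86 ± 0.18.

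**Figure D1:**
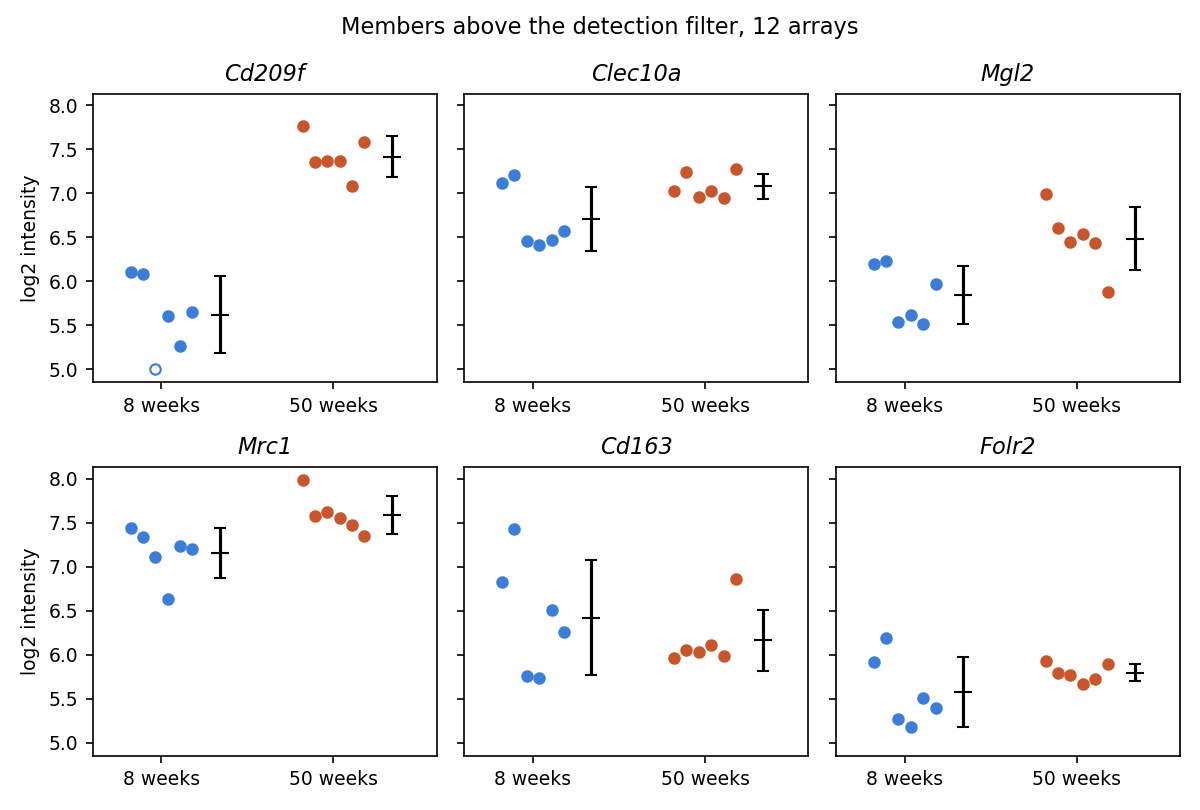
Log2 level of the 6 members that passed the detection filter on each of 6 arrays at 8 weeks and 6 at 50 weeks, with the mean and SD of each age and an open point where the probe was not detected. All 6 old values of Cd209f lie above every young one, while the ages overlap for Mgl2, Mrc1, Clec10a, Folr2 and Cd163.

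The other 4 Cd209 members were near background and did not pass the filter on detection (at least 6 of 12 arrays), so no fold change is given for them. Cd209a, which is found on dendritic cells, was detected on 0 of 12 arrays, with log2 levels of 4.32 to 4.53 at 8 weeks and 4.41 to 4.77 at 50 weeks. Cd209g was detected on 1 of 12 arrays, the 50-week array 1, at 5.05. Its 8-week lowest, median and highest values were 4.45, 4.46 and 4.72, and those at 50 weeks 4.45, 4.67 and 5.05. Cd209d passed detection on 1 young array and 3 old arrays of 6 each. Its values were 4.41, 4.61 and 5.07 at 8 weeks and 4.73, 5.00 and 5.34 at 50 weeks, and the ages overlapped. No probe of the neighbouring lectin genes Cd209c and Cd209e was detected on any array.

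Cd209b encodes a lectin known from macrophages of the splenic marginal zone and of lymph node sinuses, and its signal was highest on 1 array of each age. Its brightest reading (ILMN_3157658) was 6.41 on 8-week array 1 and 6.43 on 50-week array 2, while the medians were 4.60 at 8 weeks and 5.04 at 50 weeks. The same arrays were highest on its other probes, with 5.63 and 5.74 on ILMN_2731605 and 5.76 and 5.80 on ILMN_3078388. Over the 12 arrays the 3 probes correlated at r of 0.85 to 0.96, as a description of probes that share a transcript and the arrays. The lymph node and B cell list was also highest on these arrays within each age, at 6.41 on 8-week array 1 and 6.73 on 50-week array 2. Its B cell gene Cd79b read 6.69 and 7.25 there. On the other arrays Cd79b read 6.15 on 8-week array 2, 4.37 to 4.47 on 8-week arrays 3 to 6 and 5.20 to 6.74 at 50 weeks. The lymphoid chemokine gene Ccl21a read 8.94 and 8.50, against 7.26 to 8.28 on the other 8-week arrays and 7.03 to 7.54 on the other 50-week arrays. The part of lymph node tissue in the Cd209b signal was not tested.

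**Figure D2:**
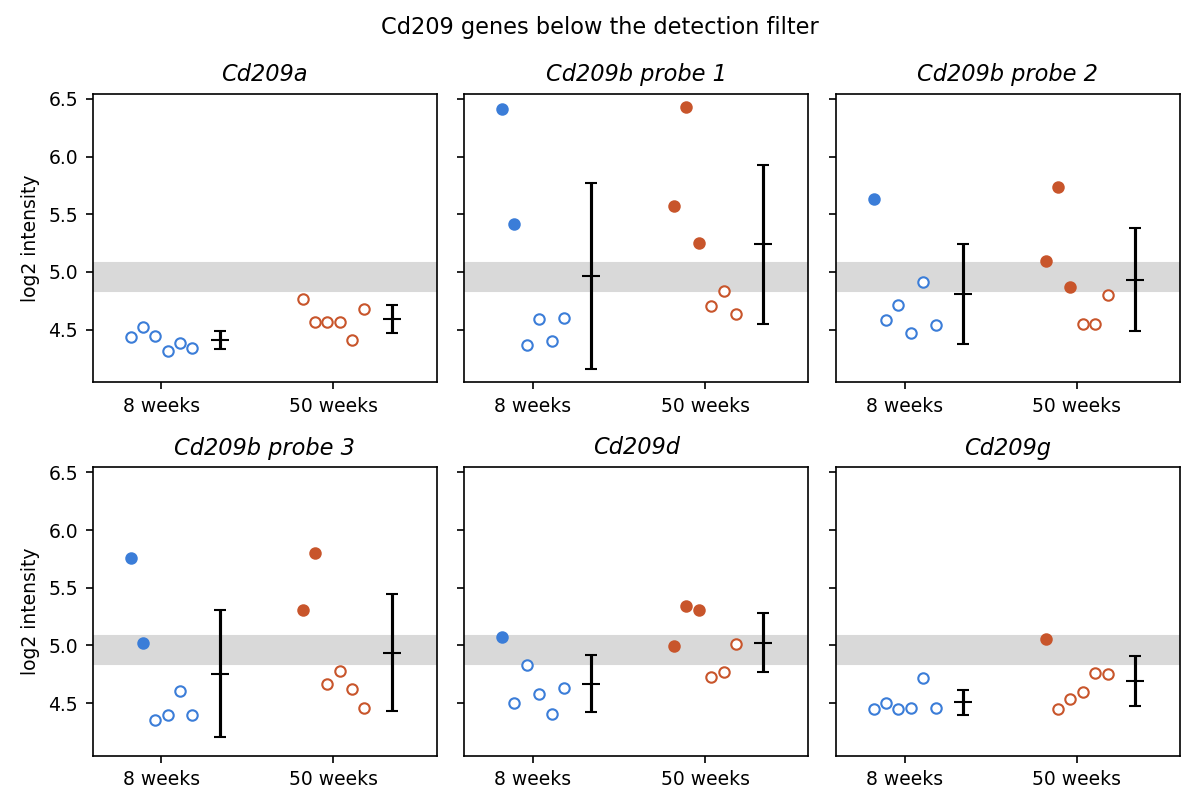
Log2 level of the probes of Cd209a, Cd209b, Cd209d and Cd209g on each array, with filled points where the probe was detected (p under 0.05) and open points where it was not. Bars are the mean and SD of 6 arrays, and the grey band is the range of the lowest detected level over arrays. The detected Cd209b values peak on 8-week array 1 and 50-week array 2, and Cd209a has no filled point.

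Of the galactose-type lectins, Mgl2, which binds N-acetylgalactosamine on mucin-type glycans and marks subsets of macrophages and dendritic cells, was higher at 50 weeks. On its brightest probe (ILMN_2707319) the 8-week lowest, median and highest log2 levels were 5.52, 5.80 and 6.23, and those at 50 weeks were 5.89, 6.49 and 6.99. On 5 of 6 old arrays it lay above every young array, the exception being array 6. The means were 5.85 ± 0.33 and 6.49 ± 0.36 (SD, n = 6 each), a difference of 0.64 ± 0.18 or 1.56-fold. Its other probe (ILMN_2707099) differed by 0.40 ± 0.13 (1.32-fold), and both probes correlated at r = 0.73 over the 12 arrays. In the fits that each left out 1 array the difference was 0.54 (without 50-week array 1) to 0.76 (without 50-week array 6). Without background correction or on the authors' values it was smaller, at 0.26 at the lowest.

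Clec10a, the macrophage galactose-type lectin that prefers Lewis-type glycans, showed a smaller difference. Its levels at 8 weeks were 6.42, 6.53 and 7.21 (lowest, median, highest), and at 50 weeks 6.95, 7.03 and 7.28. The old arrays were close to one another, and 2 of 6 lay above the highest young array, which was array 2. The difference was 0.37 ± 0.15 (1.29-fold), with means of 6.71 ± 0.36 and 7.08 ± 0.14 (SD, n = 6 each). Without 8-week array 2, the highest young array, it was 0.47.

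Mrc1 encodes the mannose receptor, an endocytic lectin that clears mannose-bearing glycoproteins. It read 6.63, 7.22 and 7.44 at 8 weeks and 7.35, 7.57 and 7.98 at 50 weeks (lowest, median, highest). On 5 of 6 old arrays the level was above every young one, array 6 again being the exception. The difference was 0.43 ± 0.14 (1.35-fold), with means of 7.16 ± 0.28 and 7.59 ± 0.22 (SD, n = 6 each). In the fits that each left out 1 array it was 0.33 (without 8-week array 4) to 0.49 (without 8-week array 1).

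The scavenger and folate receptors overlapped between the ages. Cd163, which takes up haemoglobin bound to haptoglobin, read 5.74, 6.38 and 7.43 at 8 weeks and 5.96, 6.04 and 6.87 at 50 weeks on probe ILMN_2964560. Its young values were spread, with array 2 highest and array 4 lowest, and among old arrays only array 6 stood away from the rest. The difference was -0.25 ± 0.26, and it was -0.05 without 8-week array 2 and -0.39 without 50-week array 6. The other Cd163 probe was detected on 0 of 12 arrays. Folr2, the folate receptor beta that marks a resident macrophage state, read 5.18, 5.45 and 6.19 at 8 weeks and 5.67, 5.78 and 5.93 at 50 weeks. Its difference was 0.22 ± 0.15, with 8-week array 2 above every old array, and 0.35 without that array. A second Folr2 probe differed by 0.17 ± 0.17.

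In all 6 members that passed the filter, the highest 8-week readings were those of arrays 1 and 2. These arrays also had the highest young means of the pan-macrophage list (7.63 and 8.07, the others 7.17 to 7.38), the lymph node and B cell list (6.41 and 6.10), the T cell list (6.70 and 6.40, the others 5.58 to 5.76) and the adipocyte list (8.01 and 9.80). Left out together, as an alternative chosen after seeing the data, they raised the differences, as leaving out the highest young values must. The differences were then 2.04 ± 0.15 for Cd209f, 0.82 ± 0.18 for Mgl2, 0.60 ± 0.10 for Clec10a, 0.55 ± 0.15 for Mrc1 and 0.46 ± 0.09 for Folr2. Cd163 turned from -0.25 to 0.10 ± 0.20. The part of lymphoid or fat tissue on these arrays in the member levels was not tested.

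The background over all genes is given next, with a threshold of 0.05 on the adjusted p of limma's test over 9379 genes. Of the 10 members, 6 passed the detection filter. In 2 of these, Cd209f and Mgl2, the value lay past the threshold and was higher at 50 weeks, which is a description of genes picked on this contrast and not a test of them. For Mgl2 this ended in 10 of 22 alternatives, 8 of them fits without 1 array, and its other probe was not past the threshold. Over all genes 6.35% were past the threshold and higher, 6.13% were lower and 12.5% differed in either direction. Cd209f was the 1 member whose ages did not overlap, against 3.34% of genes with that pattern in the higher direction and 6.45% in either direction. Among the 8 member probes that passed, 2 were past the threshold and higher, against 4.95% of 16254 probes. The members were picked with this contrast known, so nothing is read from these counts and shares. The median difference was 0.40 over the 6 members and -0.02 over all genes.

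**Figure D3:**
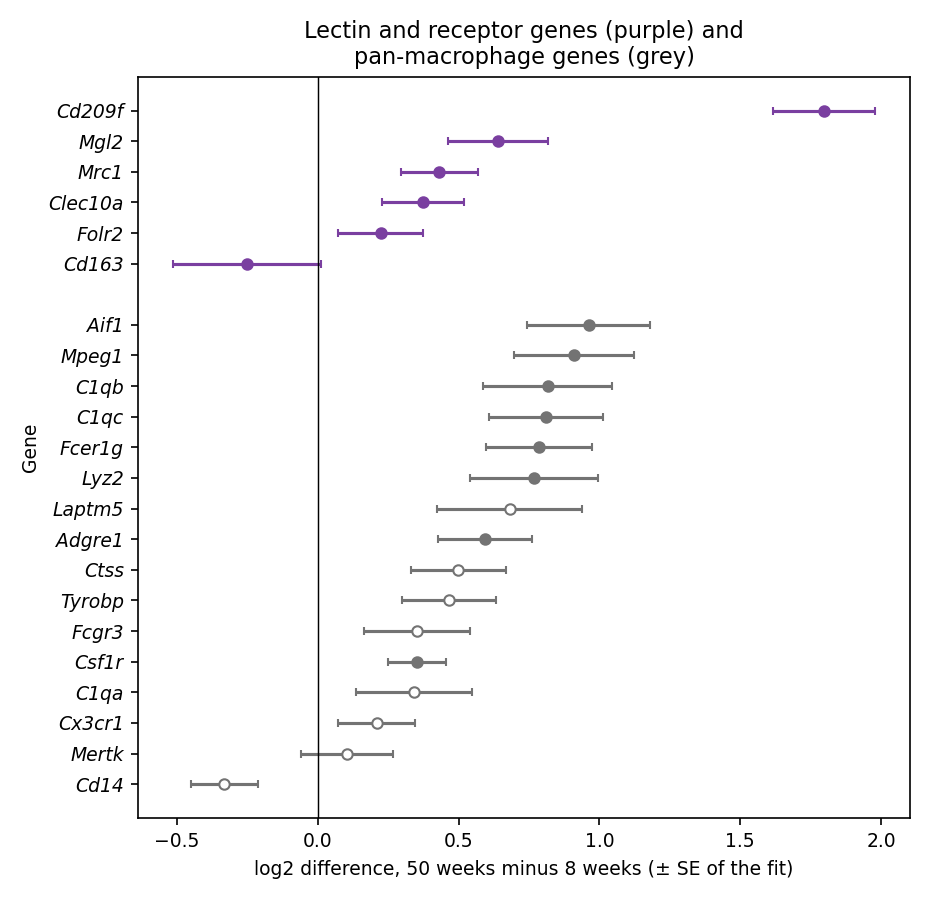
Difference in log2 level, 50 weeks minus 8 weeks, with its standard error, for the 6 members that passed the filter and the 16 pan-macrophage genes, with open grey points where the adjusted p was not under 0.05. Points of the members (purple) are all filled, whatever their adjusted p. Cd209f lies at 1.80, to the right of every other gene drawn, and Cd163 and Cd14 lie below 0.

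To see the members beside general macrophage content, 16 of 19 pan-macrophage genes on the array were tested. In this list 8 rose and 0 fell, with a median difference of 0.55. The actin-binding protein gene Aif1 rose by 0.96 ± 0.22 (limma adjusted p = 0.0118), the pore-forming protein gene Mpeg1 by 0.91 ± 0.21 (limma adjusted p = 0.0142), the Fc receptor chain gene Fcer1g by 0.78 ± 0.19 (limma adjusted p = 0.0154) and the complement gene C1qc by 0.81 ± 0.20 (limma adjusted p = 0.0190). The count was 4 or 5 without any 1 of 8-week arrays 3 to 6 or 50-week arrays 1 to 5, and 12 without 8-week array 2. With median scaling it was 3, and C1qc (0.92) was not among them. The mean of the list was 7.47 at 8 weeks and 7.99 at 50 weeks, and the defining genes Itgam and Spi1 were detected on no array. After each array's list mean was subtracted, the difference of Cd209f between the ages was 1.28 on the log2 scale. That of Mgl2 was 0.12, of Mrc1 -0.09, of Clec10a -0.15, of Folr2 -0.30 and of Cd163 -0.77. This subtraction uses the contrast on which the members were picked, so it is a description. The share of macrophage content in the member differences was not tested.

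Genes of resident and perivascular macrophages, such as Lyve1 and Stab1, were taken as a separate list. Of 18 on the array 12 were tested, 0 rose and 1 fell, with a median difference of -0.08, and 2 passed without 50-week array 6. Stab1, a scavenger receptor also made by sinusoidal endothelium, fell by 0.42 ± 0.11 on its brightest probe (limma adjusted p = 0.0203). Its other probes differed by 0.13 and 0.32, so the probes of Stab1 disagree, and with the mean of its probes the difference was 0.0105. The call also ended with median scaling (-0.30). Lyve1, the hyaluronan receptor of perivascular macrophages and lymphatic endothelium, differed by -0.37 ± 0.22 and did not pass (limma adjusted p = 0.291). Siglec1 and Vsig4 were detected on no array.

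Interleukin 4 and interleukin 13 are textbook inducers of Mrc1, Clec10a and Mgl2, so genes of alternative activation were examined. Of 17 genes, 7 were tested, 1 rose and 2 fell, with a median difference of -0.08. Another 8 were detected on no array, among them the receptor chain gene Il4ra, Chil3, Ccl17 and Ccl22. Retnla, detected on 6 arrays of each age, differed by -0.08 ± 0.20 (limma adjusted p = 0.856). Tgm2, a transglutaminase found in macrophages and in many other cells, rose by 0.94 ± 0.09 (limma adjusted p = 4.783e-05). The arginase gene Arg1 fell by 0.66 ± 0.12 (limma adjusted p = 0.00379), and Il13ra1, a receptor chain for both cytokines, fell by 0.44 ± 0.09 (limma adjusted p = 0.00603). With median scaling neither call held (Arg1 at -0.54 and Il13ra1 at -0.30). Of 12 ligand and growth factor genes 8 were tested, 2 rose and 0 fell, with a median difference of 0.01. These were the chemokine genes Ccl8 and Ccl7. Ccl8, detected on 2 of 6 young arrays, rose by 2.78 ± 0.45 (limma adjusted p = 0.00148). Ccl7, not well above background on any young array, was higher by at least 1.66-fold at 50 weeks (brightest probe, measured means 4.62 and 5.74, limma adjusted p = 0.00173). That bound sets the mean at 50 weeks against young values raised to the lowest detected signal of their array. Of the cytokine genes themselves, Il4 was detected on no array and Il13 differed by -0.32 ± 0.19 (limma adjusted p = 0.315).

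Among 26 other lectin-type and related receptors of myeloid cells, 8 were tested, 2 rose and 0 fell, with a median difference of 0.47, and 12 were detected on no array. The count past the threshold was 6 without 8-week array 2, 5 without 8-week arrays 1 and 2, and 1 without 8-week array 3, 5 or 6 or 50-week array 3. Lgals9, the secreted galectin, rose by 0.77 ± 0.19 (limma adjusted p = 0.0176) and was detected on 3 of 6 young arrays. Sirpa, the receptor for CD47, rose by 0.37 ± 0.10 (limma adjusted p = 0.0262), a call that ended without 8-week array 3, 5 or 6 or 50-week array 3 (0.30 to 0.36), with median scaling (0.48) and with the replicate block. Of 14 dendritic cell genes 7 were tested, with a median difference of 0.39. Among them the transcription factor gene Irf8 rose by 0.75 ± 0.09 (limma adjusted p = 0.000193) and the activation marker Cd83 by 0.97 ± 0.21 (limma adjusted p = 0.00945, detected on 2 of 6 young arrays), while 0 fell, and 4 genes passed without 8-week arrays 1 and 2. Of 12 monocyte and neutrophil genes 3 were tested. Plac8 rose by 0.93 ± 0.15 (limma adjusted p = 0.00182), 0 fell, and S100a8, S100a9 and Ccr2 were detected on no array.

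Markers of other cells were read beside these. Of 6 T cell genes tested 2 rose and 0 fell, with a median difference of 0.60. They were the receptor chains Cd3g (1.34 ± 0.25, limma adjusted p = 0.00356, detected on 2 of 6 young arrays) and Cd3e (0.72 ± 0.19, limma adjusted p = 0.0218). The Cd3e call ended without 8-week array 4 (0.65) or 50-week array 1 (0.63), and 5 T cell genes passed without 8-week arrays 1 and 2. None of 5 lymph node and B cell genes, 6 adipocyte genes and 3 erythrocyte genes tested passed, by limma with all 12 arrays, with median differences of 0.32, -0.82 and 0.04. Of the lymph node and B cell genes 2 passed without 8-week array 1, also without arrays 1 and 2 together, and 1 passed without 50-week array 6. Of the adipocyte genes 1 passed without 8-week array 5 or 50-week array 6. Of 6 endothelial genes 1 fell, the cadherin gene Cdh5 (-0.45 ± 0.13, limma adjusted p = 0.0442), with a median of -0.12, and among fits that left out 1 array that call remained without 8-week array 6, 50-week array 2 or 50-week array 6 and ended in the other 9. Of 8 granular duct genes 1 fell, the kallikrein gene Klk1 (-0.73 ± 0.09, limma adjusted p = 0.000177), with a median of -0.03. Of 6 genes of other salivary glands 0 passed, with a median of -0.25, and 1 passed with the replicate block. Their spread between arrays was wide, and Amy1 read 7.73 to 14.1. The part of these cell types in the member differences was not tested.

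**Figure D4:**
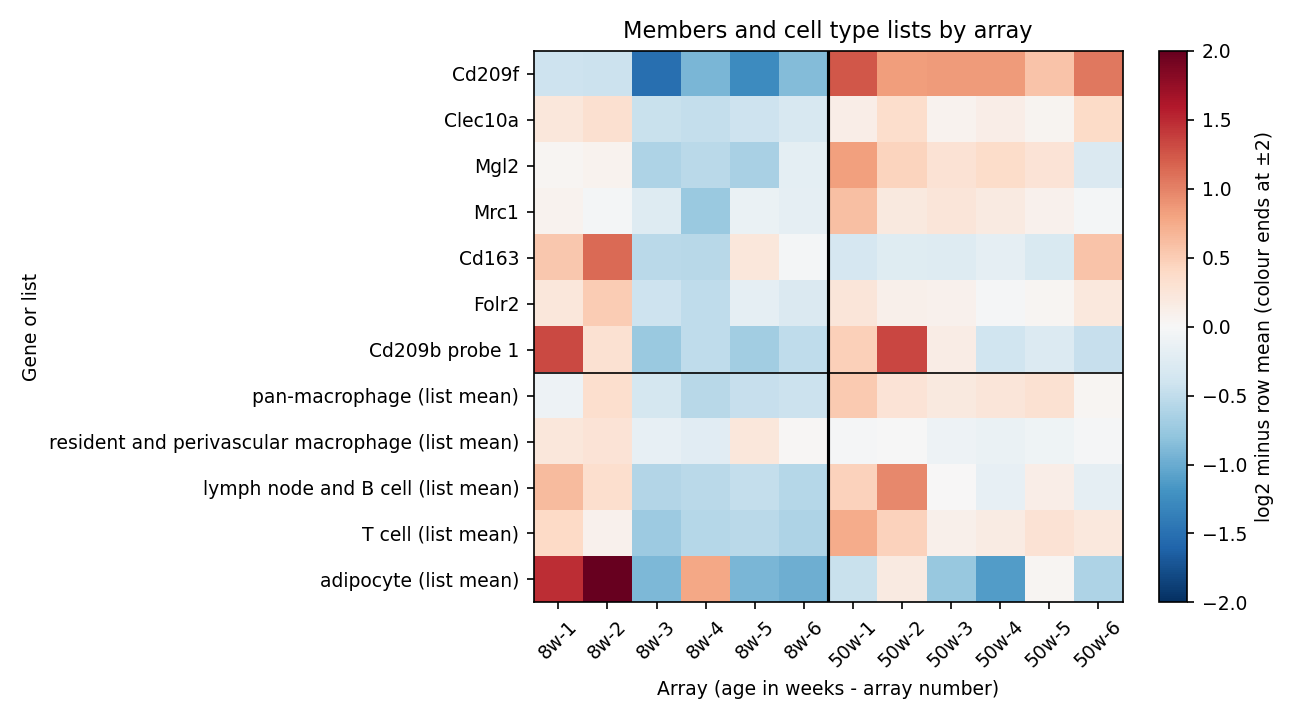
Level of 7 members, with the brightest probe of Cd209b, and of 5 cell type lists on each of the 12 arrays, shown as the deviation in log2 units from its mean over all arrays. Cd209f separates the ages, while 8-week arrays 1 and 2 read highest among young arrays for the members and for the pan-macrophage, lymph node, T cell and adipocyte lists.

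Genes next to the Cd209 cluster were read as well. Of the 8 neighbours on each side (16 genes), 6 were tested and 0 passed in either direction. Timm44, a mitochondrial import gene, came nearest, at -0.27 ± 0.09 (limma adjusted p = 0.0531).

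Variation within an age was then described, after the mean of each age was removed. Over the 12 arrays the genes most like Cd209f were Samd9l, an interferon-induced gene, at r = 0.93, Hcst and Entpd2 at 0.88, Gch1 at 0.87, Gal3st2 and Bcl2a1b at 0.86, and Birc2, Cfp, Rassf2 and St3gal6 at 0.84. All of these points share the same 12 arrays and their scaling. The 10 genes are the highest of 9378, and how high r would reach by chance alone was not tested. Of the 10 genes 3 were past the threshold between the ages, all higher: Samd9l at 0.95 ± 0.15 (limma adjusted p = 0.00115), Bcl2a1b at 1.06 ± 0.23 (limma adjusted p = 0.00984) and Birc2 at 0.26 ± 0.07 (limma adjusted p = 0.0251). Of the members, Clec10a stood closest to Cd209f, at r = 0.76 and rank 72 of 9378 genes, followed by Folr2 at 0.75, Cd163 at 0.64, Mgl2 at 0.62 and Mrc1 at 0.42. Among the other member pairs, Clec10a and Folr2 had the highest r, at 0.90, Cd163 and Folr2 were at 0.88, Mgl2 and Mrc1 at 0.73, and Mgl2 and Cd163 had the lowest, at 0.17. For all 6 members, 8-week arrays 1 and 2 read highest among young arrays, and Cd163 stood apart on 50-week array 6. How far these arrays set the correlations between members was not tested.

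Each of the 6 members was also set against the pan-macrophage mean within each age, 12 relations over 6 arrays each. None passed after Benjamini-Hochberg adjustment by the exact permutation test (two-sided, smallest possible p = 0.00139), and 5 had an unadjusted p below the threshold for Pearson's r and 0 for Spearman's rho. This count moved with the scaling: with median scaling 10 of 12 passed by Pearson's r, and on the authors' values 4 of 12. Of those on the authors' values, Cd163 at 50 weeks was negative (r = -0.92, adjusted exact permutation p = 0.0333). Its r was -0.08 with median scaling and -0.77 as processed, and neither passed. At 8 weeks r was 0.66 for Cd209f (rho 0.54, exact permutation p = 0.163 and 0.297, adjusted 0.244 and 0.427). It was 0.21 at 50 weeks (rho -0.14, exact permutation p = 0.704 and 0.803, adjusted 0.768 and 0.803). Without the 2 arrays farthest from the median of the list, which leaves 4 arrays over a narrower range, r for Cd209f was -0.70 at 8 weeks and -0.81 at 50 weeks. The highest r were those of Mgl2 at 50 weeks, 0.94 (rho 0.66, exact permutation p = 0.0389 and 0.175, adjusted 0.0933 and 0.300), and Folr2 at 8 weeks, 0.93 (rho 0.77, exact permutation p = 0.0153 and 0.103, adjusted 0.0833 and 0.272). Clec10a at 8 weeks followed with 0.91 (rho 0.83, exact permutation p = 0.0111 and 0.0583, adjusted 0.0833 and 0.272). Without the farthest 2 arrays these were 0.05, 0.22 and 0.36, and 4 arrays are too few to say whether the relation holds among the rest.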

How the data were processed

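Total RNA was labelled as biotinylated cRNA for Illumina arrays, per the labels' protocols. The deposited table holds a linear probe intensity and a detection p-value for each array, per the file headers. The authors' series matrix holds the same intensity values scaled by a single factor per array to an equal mean, as a comparison of both showed. Scanner and scan software: not given in the sources used here.

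Background was estimated through the detection p-values and corrected with neqc of limma 3.58.1 (R 4.3.3, data.table version 1.17.8), which added an offset of 16, took log2 and quantile-normalised the arrays. Probes detected (p under 0.05) on at least 6 of 12 arrays were kept, 16254 of 45281, and the brightest kept probe stood for its gene, giving 9379 genes. Single symbols were present for 34885 probes, of which 34807 matched the GRCm38.p6 gene table, while 10396 had several or none. The ages were compared with lmFit and eBayes, 2-sided, Benjamini-Hochberg adjusted over all genes, with a threshold of 0.05. Folds are 2 to the power of the log2 difference. Promoter windows were aligned with Biopython 1.88. The fit was tested on simulated data. The number of arrays limits the precision.

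Named genes are the members, up to 4 genes past the threshold with the smallest adjusted p of each list, and the 10 genes most like Cd209f, without predicted names. The members and all lists were chosen with earlier results of these data known. Of the list genes 18 had no probe of that symbol. Alternatives were the background step, scaling, filter, probe choice, array weights, authors' values, the replicate number as a block, and leaving out arrays. Leaving out 8-week arrays 1 and 2 together was added after seeing the data.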

Additional observations from a re-analysis of the deposited data

Results flagged for a closer look

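Dixon's test was applied to the 6 arrays of each age for each of the 15 member probes, 30 groups in all, and 2 had an array far from the others, where chance alone gives about 1 in 20 groups. Cd163 on 50-week array 6 read 6.87 on the log2 scale, with the next highest old array at 6.11. That array also had the lowest correlation with the others of its age (mean r 0.949). Cd209g on 8-week array 5 read 4.72, with the next highest young array at 4.50, and the probe was not detected there, with a detection value of 0.152.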

How the results depend on the processing

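The Cd209f difference was 0.82 to 2.04 over the 21 alternatives that gave it a value, and it had none among genes detected on all 12 arrays. Cd163 (-0.39 to 0.10 over 22 alternatives) changed sign in 1, turning to 0.102 without 8-week arrays 1 and 2. Other ranges were 0.26 to 0.84 for Mgl2, 0.26 to 0.56 for Mrc1, 0.19 to 0.60 for Clec10a and 0.05 to 0.46 for Folr2. Member counts below are descriptions, since the members were picked on this contrast.

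Of all genes, members and pan-macrophage genes, 1171, 2 and 8 were past the threshold. With median scaling the counts were 393 (320 higher, 73 lower), 1 and 3, and the median difference of all genes moved by 0.12. Relative to that shifted median, the differences were 1.78 for Cd209f, 0.66 for Mgl2, 0.45 for Mrc1, 0.41 for Clec10a, 0.23 for Folr2 and -0.22 for Cd163. On the authors' values 545 genes were higher and 347 lower. Without the detection filter 1 member and 5 pan-macrophage genes passed. With array weights 2593 genes and 14 pan-macrophage genes passed. Without both 8-week array 2 and 50-week array 6 the counts were 2540, 4 and 15, and without 8-week arrays 1 and 2 they were 1010, 5 and 12. Leaving out 1 array at a time gave 810 (without 50-week array 1) to 2348 genes (without 50-week array 6), 1 to 4 members (4 without 8-week array 2) and 4 to 12 pan-macrophage genes.

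Of the 12 correlations with the pan-macrophage mean, 0 passed after adjustment as processed, 10 with median scaling, 4 on the authors' values and 0 under the other 4 settings, of which 1 gave 10 correlations. The correlation of Cd209f at 8 weeks was 0.92 with median scaling (adjusted exact permutation p = 0.0190) and 0.87 on the authors' values, with an adjusted p at the threshold and not below it. At 50 weeks it was 0.21 as processed, 0.83 with median scaling and 0.69 on the authors' values. That of Clec10a at 50 weeks was -0.48 as processed, 0.87 with median scaling and 0.31 on the authors' values. Correlations were not recomputed without single arrays, which would leave 5. The Stab1 difference turned to 0.0105 with the mean of its probes. The causes were not tested.

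Same-numbered arrays of the ages correlated at -0.009 to 0.30 over all genes, and 1 of 6 young arrays was closest to its own number. Amy1, however, was lowest on arrays 3 and 5 at both ages (8.14 and 9.35 at 8 weeks, 7.73 and 7.97 at 50 weeks). It was highest on arrays 1 and 2 (13.95 and 14.10 at 8 weeks, 13.34 and 13.80 at 50 weeks). Prb1 was lowest and highest on the same numbers. Whether the numbers pair the samples was not tested further. With the number as a replicate block, 911 genes, 3 members and 7 pan-macrophage genes passed. Levels near background, as for Cd209a, Cd209b, Cd209d and Cd209g, limit what these arrays can show.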
